A study of Mus musculus with 6 samples.

Results

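The genes described here are 10 components of the Notch and Wnt signalling pathways, namely Notch1, Notch2, Rbpj and Hes1 of the Notch pathway and Lrp5, Lrp6, Ctnnb1, Tcf7, Lef1 and Tcf7l2 of the Wnt pathway. They were taken by gene symbol from the 30803 rows of the deposited tables, and all 10 symbols had a single row. The samples were bone marrow cells sorted as hematopoietic stem cells (HSCs) from wild-type mice at an age of 5 months, in a high and a low fraction for surface MHC class II, the molecules that present peptides to helper T cells. Both groups were wild type, carried Ctrl in their titles and had no treatment in the labels, and MHCII-lo and MHCII-hi had 3 libraries each. No label ties a library to an animal, and p-values therefore describe the variation among these libraries alone, part of which may be technical. Values are FPKM (fragments per kilobase of transcript, normalised to library size), as mean ± SD (n = 3 libraries per group) where an error is given, and the read depth is unknown.

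Notch receptors are cleaved when a ligand on a neighbouring cell binds them, and the freed intracellular part enters the nucleus, where it joins the DNA-binding protein RBPJ and turns on targets such as Hes1. In the canonical Wnt pathway a Wnt ligand binds a Frizzled receptor together with the coreceptor LRP5 or LRP6, which stops the breakdown of beta-catenin, the product of Ctnnb1. Beta-catenin then acts in the nucleus through the TCF and LEF proteins encoded by Tcf7, Lef1 and Tcf7l2. In the blood system Notch1 signalling directs early progenitors to the T cell fate, Notch2 is needed for marginal zone B cells, Tcf7 and Lef1 act in T cell development, and Lef1 is also expressed in early B cells.

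Promoter sequence was matched for 7 of the 10 genes in RefSeq (GRCm38.p6), and Hes1, Lrp5 and Lrp6 had no entry. The 250 bases before the annotated start are given for Notch1 and Lef1, which were higher in MHCII-hi, and for Ctnnb1, which was lower. They run 5′ to 3′ along the gene's strand. Capitals mark CTTTG, the core that TCF and LEF proteins bind, and the GC box GGGCGG, each read on both strands.
Notch1 (chr2:26503823-26504072, minus strand): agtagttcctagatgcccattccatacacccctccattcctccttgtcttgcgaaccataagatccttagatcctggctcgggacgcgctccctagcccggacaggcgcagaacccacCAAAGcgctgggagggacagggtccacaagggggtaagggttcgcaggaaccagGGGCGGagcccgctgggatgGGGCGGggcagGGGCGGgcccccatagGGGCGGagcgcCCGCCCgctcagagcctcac
Lef1 (chr3:131110047-131110296, plus strand, the first of its annotated starts): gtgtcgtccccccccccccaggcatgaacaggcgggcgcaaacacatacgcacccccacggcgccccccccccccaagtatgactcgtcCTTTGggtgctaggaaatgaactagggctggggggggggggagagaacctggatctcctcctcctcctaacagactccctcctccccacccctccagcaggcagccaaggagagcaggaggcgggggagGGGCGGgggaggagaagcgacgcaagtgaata
Ctnnb1 (chr9:120933150-120933399, plus strand, the first of its annotated starts): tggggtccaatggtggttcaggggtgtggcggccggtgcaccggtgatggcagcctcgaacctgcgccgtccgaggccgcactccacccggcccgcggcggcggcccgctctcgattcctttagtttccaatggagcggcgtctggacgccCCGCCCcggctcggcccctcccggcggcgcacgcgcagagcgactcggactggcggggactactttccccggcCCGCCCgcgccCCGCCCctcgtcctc

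None of the 14 windows of these 7 genes held GTGGGAA, the letters of a strong RBPJ site, or CTTTGAT, a fuller TCF and LEF site, on either strand. Over all 32851 RefSeq windows of this length, 5.42% held the former and 3.21% the latter. The Notch1 window held 1 CTTTG, 127 bases before the start, and 5 GC boxes. The Lef1 window held 1 CTTTG, 156 bases before the start, and 1 GC box, 26 bases before it. The Ctnnb1 window held no CTTTG and 3 GC boxes. Of all windows, 48.6% held CTTTG and 32.7% the GC box, so matches to either are common. The Notch1 and Ctnnb1 starts lie inside the longer GENCODE gene spans given below, and the Lef1 start lies before its span. The gene-level values do not tell which start was used.

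The libraries as a whole differed in their makeup. The FPKM of a library summed to 305934 to 306945 in MHCII-lo and to 333347 to 333530 in MHCII-hi, and immunoglobulin segments made up 0.392 to 0.458% and 8.26 to 8.34% of these sums. Mitochondrially encoded transcripts made up 8.81 to 8.96% in MHCII-lo and 12.5% in each MHCII-hi library. Stem cell markers were partly near 0: Kit lay at 10.7 to 11.1 FPKM over the 6 libraries, but Mecom reached at most 0.210 FPKM, Fgd5 at most 0.150 FPKM, and Hoxb5 was listed at 0 in 5 libraries. The neutrophil transcript S100a9 stood at 5887 to 5911 FPKM in MHCII-lo and 7575 to 7665 in MHCII-hi. Elane and Mpo, also of neutrophils, went down, from 1121 ± 17.8 to 782 ± 12.2 and from 1388.5 ± 12.1 to 1104.6 ± 7.12 FPKM. Among the 10 listed neutrophil markers these 2 were lower in MHCII-hi, 7 were higher and 1 did not pass the test described below. In bulk RNA fewer cells of a type and less RNA per cell cannot be told apart, and this holds for each difference below.

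A gene was tested where its 6 libraries averaged 1 FPKM or more, which kept 9 of the 10 genes and left out Tcf7l2. Differences are MHCII-hi minus MHCII-lo on the log2(FPKM + 1) scale, which understates the change of low genes, and were tested with limma across 12295 genes with Benjamini-Hochberg adjustment. Of the 9, 5 rose (Hes1, Lef1, Tcf7, Notch1 and Notch2), 2 fell (Ctnnb1 and Lrp5) and 2 did not pass (Rbpj and Lrp6). Calls were common in this comparison: 67.8% of all tested genes were called, 27.2% as higher and 40.5% as lower. These were 3348 and 4982 genes, a split that became 4189 and 3915 with median-of-ratios scaling. Lef1 reached the minimum only through its level in MHCII-hi, so that it had to differ to be tested. The median change of the 9 was 0.11, against -0.08 over all tested genes. The median size of a change, regardless of sign, was 0.51 against 0.28. Once the dependence on transcript length and GC content was taken out, the median change was -0.006 for the 9 and -0.036 over all tested genes.

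**Figure D1:**
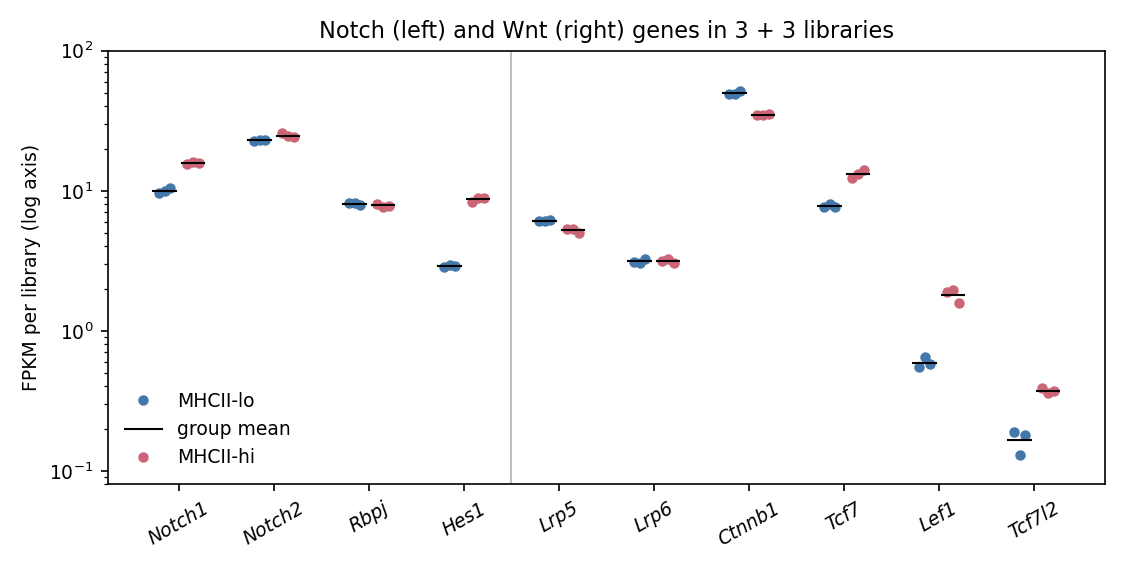
FPKM of each of the 10 genes in each library on a log axis, with 1 point per library (blue MHCII-lo, red MHCII-hi) and the group mean as a line. Hes1, Lef1, Tcf7 and Notch1 are separated upward in MHCII-hi, Ctnnb1 downward, and Rbpj and Lrp6 overlap.

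Both receptor genes were called higher in MHCII-hi, with log2 changes of 0.61 for Notch1 and 0.11 for Notch2. Notch1 (ENSMUSG00000026923.15; GRCm38 chromosome 2, 26457903 to 26516663, minus strand) had 9.65, 10 and 10.39 FPKM in MHCII-lo, against 15.52, 16.14 and 15.84 in MHCII-hi. The groups were well apart, with every MHCII-hi library above every MHCII-lo library. The mean went from 10.01 ± 0.370 to 15.8 ± 0.310 FPKM, a ratio of 1.58 and a log2 change of 0.61 ± 0.04 (SE; limma adjusted p = 1.04e-05). That change was larger than the change of 92.0% of the tested genes. Once the dependence on transcript length and GC content was taken out of every library, the log2 change of Notch1 was 0.35 (limma adjusted p = 0.000104). The longest annotated Notch1 transcript has 9488 bases and 57.1% GC. A non-coding gene on the opposite strand of Notch1, 0610009E02Rik, stood at 0.11 to 0.18 FPKM, and whether counting used the strand is not given in the labels.

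Notch2 (ENSMUSG00000027878.11; chromosome 3, 98013527 to 98150361, plus strand) had 22.82, 22.97 and 22.95 FPKM in MHCII-lo, against 25.80, 24.52 and 24.05 in MHCII-hi. The groups did not overlap, but the gap between them was narrower than the spread within MHCII-hi. The log2 change was 0.11 ± 0.03 (SE; limma adjusted p = 0.0194), a difference of 8.19% in the mean. The call was lost without MHCII-lo replicate 1, 2 or 3 in turn (limma adjusted p = 0.0537, 0.0517 and 0.0523). With the length and GC trend removed the direction turned, to -0.11 (limma adjusted p = 0.0183), so the direction of Notch2 depends on that step. Its longest transcript has 10500 bases.

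Of the nuclear effector and the target of the Notch pathway, Hes1 rose and Rbpj did not pass. Rbpj, which encodes the DNA-binding protein of the pathway (ENSMUSG00000039191.12; chromosome 5, 53466152 to 53657362, plus strand), had 8.14, 8.24 and 7.93 FPKM in MHCII-lo, against 8.10, 7.70 and 7.80 in MHCII-hi. The groups overlapped, and the log2 difference of -0.04 ± 0.04 (SE) did not pass (limma adjusted p = 0.369). The files also list Rbpj-ps3, a processed pseudogene named after Rbpj, at 2.91 to 3.47 FPKM in MHCII-lo, against 2.58 to 3.29 in MHCII-hi. Because the copies can share reads, the level of Rbpj itself is uncertain. The sum of both rows was 11.3 ± 0.278 FPKM in MHCII-lo, against 10.8 ± 0.477 in MHCII-hi.

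Hes1, a transcriptional repressor and the best-known Notch target (ENSMUSG00000022528.8; chromosome 16, 30064384 to 30067796, plus strand), had 2.86, 2.95 and 2.92 FPKM in MHCII-lo, against 8.38, 8.83 and 8.84 in MHCII-hi. The lowest MHCII-hi library was far above the highest MHCII-lo library. The ratio of means was 2.98, the log2 change was 1.31 ± 0.04 (SE; limma adjusted p = 5.48e-07), and 97.5% of tested genes had a smaller change. Hes1 was the only gene of the 9 called higher with a log2 change of 1 or more, as were 3.69% of tested genes. With pseudocounts of 0.1 and 0.01 the change of Lef1 also exceeded 1, at 1.46 and 1.59. Hes1 kept its call in each of the 17 alternative settings run, with changes of 1.30 to 1.57. Immediate early genes, a class induced quickly when cells are stimulated, moved the same way: 15 of 16 listed were called higher. Of the 16, 1 reached the minimum only through the group where it was higher. The summed level of the 16 was 2516 to 2551 FPKM in MHCII-lo, against 3975 to 3982 in MHCII-hi. The part of these genes in the change of Hes1 was not tested.

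Of the coreceptors of the Wnt pathway, Lrp5 fell and Lrp6 did not pass. Lrp5 (ENSMUSG00000024913.16; chromosome 19, 3584828 to 3686564, minus strand) had 6.06, 6.06 and 6.21 FPKM in MHCII-lo, against 5.36, 5.33 and 4.97 in MHCII-hi. All MHCII-hi libraries were below all MHCII-lo libraries, and the log2 change was -0.19 ± 0.04 (SE; limma adjusted p = 0.00519). Median-of-ratios scaling took the call away (-0.10, limma adjusted p = 0.0601), and removal of the length and GC trend raised the fall to -0.40 (limma adjusted p = 0.000179). Lrp6 (ENSMUSG00000030201.15; chromosome 6, 134446476 to 134566965, minus strand) had 3.09, 3.06 and 3.25 FPKM in MHCII-lo, against 3.16, 3.27 and 3.06 in MHCII-hi. The groups lay on top of each other (log2 difference 0.01 ± 0.05, SE; limma adjusted p = 0.858).

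Ctnnb1, the most abundant of the 10 genes, fell. It encodes beta-catenin, which also links cadherins to the cytoskeleton (ENSMUSG00000006932.17; chromosome 9, 120929216 to 120960507, plus strand). Its values were 49.31, 49.46 and 51.91 FPKM in MHCII-lo, against 34.64, 34.70 and 35.40 in MHCII-hi. The groups were far apart, and the mean was 30.5% lower in MHCII-hi, a change of -0.51 ± 0.03 (SE) on the log2 scale (limma adjusted p = 6.35e-06). Of the tested genes, 12.7% fell further. The fall of Ctnnb1 kept its call in all 17 alternative settings, at -0.52 to -0.41.

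The TCF and LEF genes were higher in MHCII-hi. Tcf7, which encodes TCF1 (ENSMUSG00000000782.15; chromosome 11, 52252371 to 52283014, minus strand), had 7.70, 7.98 and 7.67 FPKM in MHCII-lo, against 12.34, 13.14 and 14.01 in MHCII-hi. The MHCII-hi libraries spread more widely than the MHCII-lo libraries but stayed clear of them. The ratio of means was 1.69 and the log2 change 0.69 ± 0.05 (SE; limma adjusted p = 2.50e-05).

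Lef1 (ENSMUSG00000027985.14; chromosome 3, 131110471 to 131224356, plus strand) had 0.55, 0.65 and 0.58 FPKM in MHCII-lo, against 1.88, 1.97 and 1.59 in MHCII-hi. Its level was low in both groups, and the groups did not overlap. The ratio of means was 3.06 and the log2 change 0.82 ± 0.08 (SE; limma adjusted p = 0.000146), which became 1.59 with a pseudocount of 0.01.

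Tcf7l2, which encodes TCF4 (ENSMUSG00000024985.19; chromosome 19, 55741820 to 55933654, plus strand), lay under the minimum, with 0.19, 0.13 and 0.18 FPKM in MHCII-lo, against 0.39, 0.36 and 0.37 in MHCII-hi. Every MHCII-hi library was above every MHCII-lo library. In the fit without a minimum its log2 change was 0.24 ± 0.04 (SE; limma adjusted p = 0.00484), in a setting where 14.1% of genes were called higher. Over the 10 genes, 6 were higher and 2 lower without overlap between the groups, where 72.8% of the tested genes had groups that did not overlap.

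Most tested markers of T and B cells moved with Notch1, Tcf7 and Lef1, as did those of some other cell types. Of 15 T cell markers 14 were tested, and 12 rose, 1 fell and 1 did not pass. Cd4 rose from 0.897 ± 0.0503 to 4.14 ± 0.191 FPKM and the receptor constant region Trac from 11.7 ± 1.5 to 27.1 ± 2.20 FPKM. Cd3d was the marker that fell, from 6.04 ± 0.244 to 4.53 ± 0.286 FPKM (limma adjusted p = 0.00106). The constant region Trbc1 did not pass, at 17.9 ± 1.2 and 17.4 ± 1.7 FPKM (limma adjusted p = 0.624). The summed T cell markers stood at 97.4 to 98.8 FPKM in MHCII-lo, against 147 to 156 in MHCII-hi. Of 15 B cell markers, 13 were tested and all 13 rose, with sums of 34.4 to 36.9 and 225 to 230 FPKM. The minimum was reached only through MHCII-hi by 2 of the 14 T cell markers (Cd4 and Cd5) and 4 of the 13 B cell markers (Ms4a1, Ebf1, Fcmr and Bank1), which had to differ to be tested. No marker of either list was at 0 in all libraries of a group. Of the NK and innate lymphoid markers 4 of 7 rose and 2 fell, and their sum was lower in MHCII-hi, at 159 to 164 FPKM against 174 to 179. Dendritic markers rose in 6 of 7 tested cases and fell in 1, stem cell markers rose in 6 of 8, and macrophage markers rose in 4 of 7 and fell in 2. Of these, 1 dendritic, 2 stem cell and 3 macrophage markers reached the minimum only through the group where they were higher. Such markers had to differ to be tested. The part of these cell types in the values of Notch1, Tcf7 and Lef1 was not tested.

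**Figure D2:**
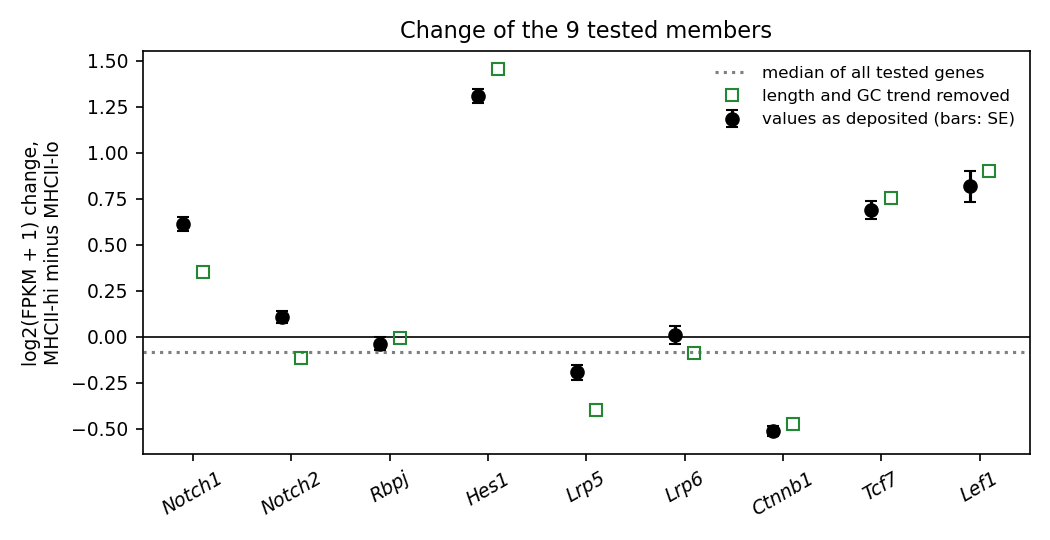
Change of the 9 tested genes on the log2(FPKM + 1) scale (black points, bars are SE from limma), and the same once the dependence on transcript length and GC content was taken out (green squares). The dotted line is the median of all tested genes, -0.08. The correction lowers Notch1 and turns Notch2 from 0.11 to -0.11, while Hes1, Tcf7, Lef1 and Ctnnb1 keep their direction.

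FPKM is scaled to transcript length, so levels can be set side by side. In MHCII-lo the order from high to low was Ctnnb1, Notch2, Notch1, Rbpj, Tcf7, Lrp5, Lrp6, Hes1, Lef1 and Tcf7l2, and of neighbours in it only Rbpj and Tcf7 overlapped. In MHCII-hi the order was Ctnnb1, Notch2, Notch1, Tcf7, Hes1, Rbpj, Lrp5, Lrp6, Lef1 and Tcf7l2, with no overlap between neighbours. Hes1 went from place 8 to place 5 and Rbpj from place 4 to place 6, but the place of Rbpj rests on its uncertain level. With Rbpj-ps3 added, at 11.3 and 10.8 FPKM, Rbpj would stand above Notch1 in MHCII-lo and above Hes1 in MHCII-hi. The summed FPKM of the 4 Notch pathway genes was 43.5 to 44.2 in MHCII-lo and 56.5 to 57.8 in MHCII-hi. The sum of the 6 Wnt pathway genes was 66.9 to 69.8 and 57.8 to 59.4, which mostly reflects Ctnnb1.

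Ratios between 2 genes of a library do not depend on how the library was scaled. With 3 libraries per group the exact permutation test, two-sided, cannot go below 0.10, so none of the 5 pairs compared could pass. Notch1 amounted to 0.437 ± 0.0150 of the Notch2 level in MHCII-lo and 0.639 ± 0.0328 in MHCII-hi. Hes1 amounted to 0.359 ± 0.00850 of the Rbpj level in MHCII-lo and to 1.10 ± 0.0613 in MHCII-hi. Against the sum of Rbpj and Rbpj-ps3, 10.28 to 11.12 FPKM in MHCII-hi, Hes1 stayed below. Lrp6 stood at 0.513 ± 0.00952 and 0.606 ± 0.0145 of Lrp5. The test used differences of log2(FPKM + 1), which, unlike the plain ratios, depend on library scaling through the pseudocount of 1. On that scale the groups did not overlap for these 3 pairs (exact permutation p = 0.10, the smallest possible, adjusted p = 0.125 over the 5 pairs).

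The other pairs, each with 1 gene of low level, gave different pictures on different scales. Lef1 stood at 0.0762 ± 0.00503 of the Tcf7 level in MHCII-lo and 0.139 ± 0.0218 in MHCII-hi. On the log2(FPKM + 1) scale the difference between Lef1 and Tcf7 overlapped between the groups (exact permutation p = 0.40, adjusted p = 0.40). Tcf7l2 stood at 0.0215 ± 0.00453 and 0.0285 ± 0.00276 of Tcf7. On the log2(FPKM + 1) scale that pair moved by -0.45 (exact permutation p = 0.10, adjusted p = 0.125), and by 0.38 with a pseudocount of 0.01.

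**Figure D3:**
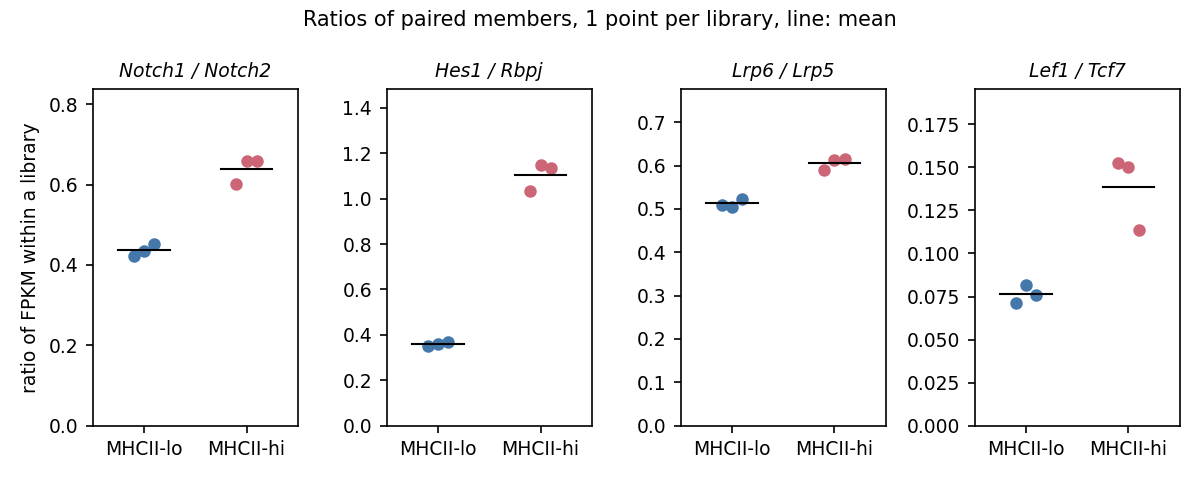
Ratio of FPKM between 2 genes within each library, for 4 pairs, with 1 point per library (blue MHCII-lo, red MHCII-hi) and the mean as a line; each axis starts at 0. Hes1 goes from 0.359 to 1.10 of Rbpj, while Lrp6 over Lrp5 moves from 0.513 to 0.606.

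The other genes of both pathways were taken from a list of 152 by role, of which 141 had a row and 75 were tested. Of the 75, 40 rose, 18 fell and 17 did not pass, where 27.2% of all tested genes were called higher and 40.5% lower. Their median log2 change was 0.14, and 0.05 with the length and GC trend removed, against -0.08 and -0.04 over all tested genes. Taken by pathway, 22 of 38 Notch genes rose and 10 fell, and 19 of 38 Wnt genes rose and 8 fell, with Myc counted in both. In all, 5 of the 75 (Maml2, Gata3, Jup, Fzd5 and Rspo1) reached the minimum only through the group where they were higher.

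Genes for the processing of Notch moved both ways. Of 15 tested genes for receptors and their processing, 6 rose, 7 fell and 2 did not pass. Adam10, the protease of the ligand-induced cut, fell from 41.2 ± 0.998 to 30.2 ± 0.550 FPKM, and Aph1a, a subunit of gamma-secretase, from 24.6 ± 0.309 to 17.4 ± 1.1 FPKM (limma adjusted p = 1.37e-05 and 0.000107). The Fringe glycosyltransferases Mfng and Rfng, which tune the response to ligands, rose 1.40-fold and 1.37-fold (limma adjusted p = 0.000159 and 0.000581).

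Nuclear cofactors of the Notch pathway rose in 9 of 13 tested cases and fell in 2. The coactivator gene Maml2 rose from 0.557 ± 0.104 to 1.80 ± 0.0721 FPKM, and the acetyltransferase gene Crebbp from 3.61 ± 0.0586 to 6.0 ± 0.219 FPKM. Maml2 reached the minimum only through MHCII-hi, so that it had to differ to be tested. Snw1 and the deacetylase gene Hdac1 fell by 0.39 and 0.29 on the log2 scale. The median log2 change of the 13 was 0.34, and 0.06 with the length and GC trend removed.

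Of 8 tested cytoplasmic regulators of Notch, 5 rose and 1 fell. Numb, which restrains Notch, rose from 10.1 ± 0.228 to 14.5 ± 0.227 FPKM, and Dtx4 fell from 9.74 ± 0.845 to 6.68 ± 0.121 FPKM. Nrarp, a feedback inhibitor induced by Notch, rose from 1.55 ± 0.202 to 2.17 ± 0.214 FPKM (limma adjusted p = 0.0158), a call that was lost without a minimum (limma adjusted p = 0.0503). It is also one of the 3 Notch targets that reached the minimum, which all rose, where 27.2% of all tested genes were called higher. The others were Gata3, a T cell factor, from 0.560 ± 0.0781 to 1.77 ± 0.0872 FPKM, and Myc, from 24.9 ± 0.947 to 35.8 ± 1.25 FPKM. Gata3 reached the minimum only through MHCII-hi, so that it had to differ to be tested.

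In the Wnt pathway 18 cytoplasmic transducers were tested, and 7 rose, 4 fell and 7 did not pass. Jup, which encodes plakoglobin, a close relative of beta-catenin, rose from 0.833 ± 0.0289 to 1.96 ± 0.0321 FPKM. It reached the minimum only through MHCII-hi, so that it had to differ to be tested. Dvl3, a Dishevelled scaffold, rose from 3.43 ± 0.302 to 5.62 ± 0.291 FPKM. Gsk3a, a kinase of the family that marks beta-catenin for breakdown, rose 1.24-fold to 45.1 ± 1.20 FPKM. Csnk1a1, the kinase that primes beta-catenin for it, fell from 30.8 ± 0.0208 to 24.6 ± 0.236 FPKM. Tnks2, which promotes the turnover of Axin, fell by 0.22 on the log2 scale.

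Of 10 tested nuclear cofactors of the Wnt pathway, coactivators and corepressors alike, 6 rose and 2 fell. Bcl9l and Bcl9, adaptors that bind beta-catenin, rose 1.93-fold and 1.51-fold. The corepressor genes Tle3 and Tle4 rose 1.34-fold and 1.27-fold. The corepressor gene Ctbp1 and the adaptor gene Pygo2 fell by 0.27 and 0.24 on the log2 scale. The most abundant gene of this group was Tle5, of the Groucho corepressor family, at 49 ± 1.80 and 55.9 ± 1.35 FPKM (limma adjusted p = 0.00202).

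Few Wnt ligands and receptors reached the minimum. Of 17 genes for ligands and their secretion with a row, 2 were tested and both fell. Wls, which carries Wnt proteins to the surface, went from 13.6 ± 0.216 to 8.19 ± 0.506 FPKM. Rspo1, a secreted amplifier of Wnt signals, went from 1.28 ± 0.273 to 0.760 ± 0.0624 FPKM. Rspo1 reached the minimum only through MHCII-lo, so that it had to differ to be tested. Of the receptors, Fzd5 rose from 0.960 ± 0.187 to 1.45 ± 0.190 FPKM (limma adjusted p = 0.0268), and Fzd7 stood at 1.62 ± 0.210 and 1.57 ± 0.327 FPKM (limma adjusted p = 0.811). Fzd5 reached the minimum only through MHCII-hi. Its call was lost without a minimum (limma adjusted p = 0.0685) and with the length and GC trend removed (0.21 on the log2 scale, limma adjusted p = 0.111). The inhibitor gene Rnf43, which encodes a ligase that removes Frizzled receptors, rose from 1.15 ± 0.0115 to 1.73 ± 0.275 FPKM.

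All 5 Wnt targets that were tested rose, where 27.2% of all tested genes were called higher. Ccnd1, which encodes cyclin D1, rose from 2.61 ± 0.131 to 4.14 ± 0.192 FPKM, and Jun from 416 ± 4.52 to 647 ± 5.68 FPKM. The rise of Cd44 was small, from 57.5 ± 1.01 to 63.0 ± 0.683 FPKM, or 0.13 on the log2 scale. Jun is also on the list of immediate early genes, Myc is shared with the Notch targets, and Rnf43 is also counted among the inhibitors. Ctnnb1 itself was lower in the same libraries, and the activity of the pathway was not tested.

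**Figure D4:**
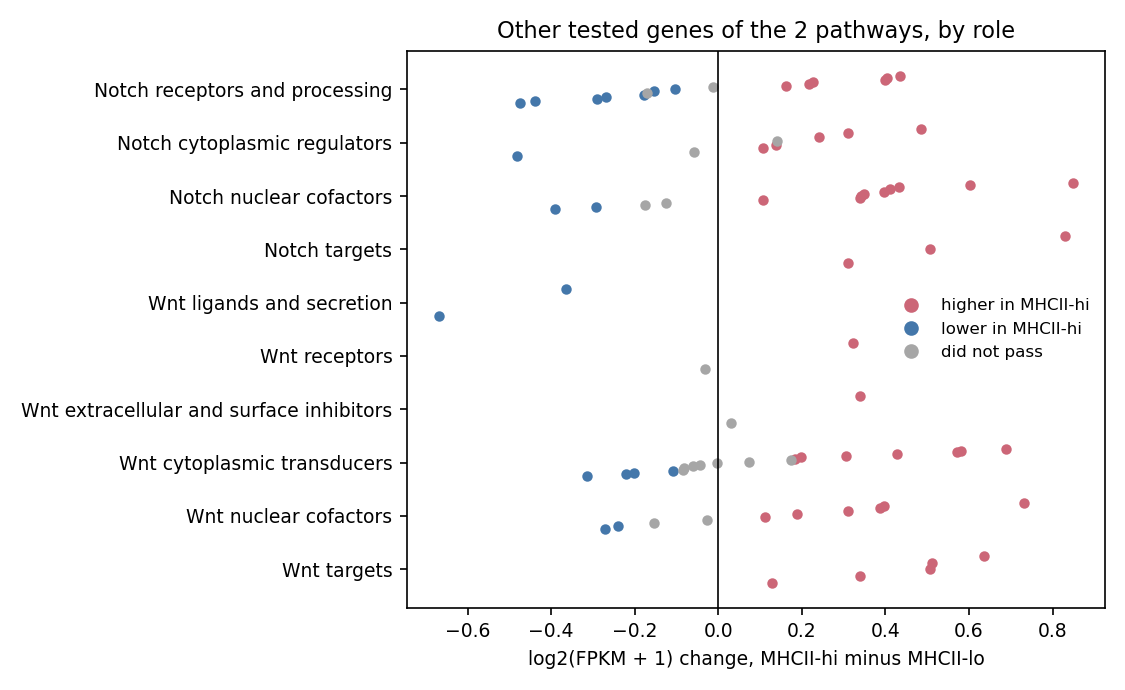
Change of each other tested gene of both pathways on the log2(FPKM + 1) scale, in rows by role, coloured by the limma call; genes on more than 1 list appear in each. All Notch and Wnt targets that were tested lie right of 0, while processing genes of Notch lie on both sides. The Notch target Gata3 reached the minimum only through MHCII-hi.

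Genes under the minimum included most of the ligands and several classical targets. Of the other pathway genes, 63 lay under the minimum with a value above 0 in at least 1 library, and 19 were higher and 2 lower in MHCII-hi without overlap between the groups. Among all such low genes 10.9% were higher and 4.91% lower without overlap. None of the 5 Notch ligand genes reached the minimum. The most abundant of them, Jag1, stood at 0.280 ± 0.0361 and 0.510 ± 0.0265 FPKM, and Dll4 at 0.117 ± 0.0321 and 0.437 ± 0.0404 FPKM.

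Of the targets under the minimum, 5 of 8 Notch targets and 4 of 7 Wnt targets were higher without overlap. The groups overlapped for the Notch targets Hes5, Hey2 and Heyl and the Wnt targets Nkd1, Nkd2 and Notum. Dtx1, a Notch target in lymphocytes, had 0.340 ± 0.01 and 1.18 ± 0.184 FPKM, and Il2ra, the interleukin 2 receptor alpha chain, 0.137 ± 0.00577 and 1.29 ± 0.125 FPKM. Axin2, the standard Wnt target, had 0.553 ± 0.107 and 1.40 ± 0.264 FPKM, and Lgr5, a receptor for R-spondins and a Wnt target, 0.0900 ± 0.0173 and 0.600 ± 0.0557 FPKM. The 2 genes lower in MHCII-hi were the receptors Fzd4 and Lgr4. Dtx1, Dll4, Il2ra, Axin2, Lgr5, Fzd4, Lgr4 and the overlapping targets were named after their values were seen. So were the markers Cd5, Ms4a1, Ebf1 and Bank1, and Kit, Mecom, Fgd5, Hoxb5 and S100a9 above. The same holds for Tle3, Tle4, Cd3d, Trbc1, Cd44, Elane and Mpo.

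The genes most like Hes1 and Ctnnb1 over the 6 libraries were sought among 10757 named genes by Euclidean distance of centred log2(FPKM + 1). For Hes1 these were Mxd1, an antagonist of Myc, with a log2 change of 1.31, Grina with 1.25 and Alox5, a lipoxygenase of granulocytes, with 1.24, at distances of 0.0934, 0.103 and 0.106. For Ctnnb1 they were the phosphatase gene Ppp1cc, the carbonic anhydrase gene Car1 of red cell precursors and Gcdh, with log2 changes of -0.50, -0.51 and -0.53 at distances of 0.0377, 0.0388 and 0.0390. With 2 groups, such likeness mostly reflects a change of the same size. Erythroid markers fell in the same libraries, 10 of 10, and neutrophil markers were higher in 7 of 10 and lower in 2; their part was not tested.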

How the data were processed

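Poly(A) RNA-seq libraries of sorted HSC fractions were prepared with a stranded kit, per the labels' protocols. Among tools, StringTie, HISAT2 and fastp appear in the submitters' processing notes, beside mm10 and GRCm38 as builds, with no version or setting stated. The authors' deposited values carry no unit in the file headers and were read as FPKM, from their decimals and from sums that differ between groups. FPKM is relative, so a rise of abundant transcripts lowers all others. Low values gave no clean steps of whole reads, so no depth or counting interval was computed.

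The 30803 rows were joined by position, and where 1 of 67 symbols was repeated, its most abundant row was taken under that name. GENCODE M21 matched 96.6% of symbols and gave coordinates, length and GC content of the longest transcript. Groups followed the sample titles. limma 3.58.1 under R 4.3.3 was fitted to log2(FPKM + 1) (empirical Bayes with trend, two-sided, Benjamini-Hochberg over the 12295 genes averaging 1 FPKM or more, threshold 0.05) and was tested on simulated data. The members and gene lists were chosen with earlier results of these data known. Of each role or marker list, the largest changes past the test and the most abundant gene could be named, up to 2 per direction, and for Hes1 and Ctnnb1, the members with the highest and lowest change, the 3 nearest genes. The alternatives were pseudocounts of 0.1 and 0.01, no minimum, a minimum of 5 FPKM, 3 other scalings, no trend, weights per array, a replicate block, removal of a quadratic trend on length and GC content per library, and each library left out. Python 3.11.15, pandas 2.3.3 and scipy 1.17.1 handled tables and exact tests, and matplotlib 3.10.9 the figures.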

Additional observations from a re-analysis of the deposited data

How the results depend on the processing

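Hes1, Notch1, Tcf7, Lef1 and Ctnnb1 kept their direction and call in every alternative that could be run, 17 each and 16 for Lef1, which falls under the minimum of 5 FPKM. Of 9 tested genes 5 were called higher and 2 lower, against 5 and 1 with median-of-ratios scaling and 4 and 3 with the length and GC trend removed. Over all genes 3348 were called higher, and 2210 with a minimum of 5 FPKM, which tests fewer genes; of the other pathway genes 25 were then called higher, against 40. Notch2 turned to -0.11 with the length and GC trend removed and lay between 0.08 and 0.13 with 1 library left out. Rbpj, which did not pass, turned to 0.028 with equal totals without immunoglobulin and mitochondrial transcripts and to 0.056 with median-of-ratios scaling. Lrp6, which did not pass either, turned to -0.089 with the length and GC trend removed and to -0.00073 with quantile normalization, and lay between -0.0080 and 0.031 with 1 library left out. The pair of Tcf7l2 and Tcf7 turned to 0.086 and 0.38 with pseudocounts of 0.1 and 0.01, and had no value with quantile normalization or the length and GC trend removed. That of Lef1 and Tcf7 turned to -0.027 with quantile normalization. The cause of these turns was not tested.

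No label ties libraries with the same replicate number to each other. The deviations of the pairs correlated at 0.063, 0.0019 and 0.080, and 4 of the 6 libraries correlated best with their own number. These values do not settle whether the libraries were paired. With the replicate number as a block 5 members were called higher and 2 lower, as without it, and over all genes 3222 higher and 4809 lower.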
